A study of Mus musculus with 2 samples.

Results

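The genes described here were 8 genes listed for corticotropes and melanotropes, the pituitary cells that make proopiomelanocortin. The members are Pomc, Tbx19, Crhr1, Avpr1b, Pax7, Neurod1, Crhbp and Mc2r. They were chosen by name, and all 8 were matched by symbol and identifier among the 47069 genes of the count table. Pituitaries of randomly cycling female C57BL/6 mice aged 10 to 12 weeks were dissociated, and the sample labels give 5 pituitaries and 500000 to 700000 cells for a sample. Cells of 1 sample were held in RNA-Best and those of the other in RNAlater, both of them RNA-stabilizing solutions, and a bulk RNA-seq library was made from each. The question was how the transcriptome read from one stabilized sample compares with that from the other. With 1 library per solution, the preservative, the pool of mice and the library cannot be told apart and no test was possible. All intervals given cover counting error only, and PCR reads without molecular identifiers are not independent molecules.

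Proopiomelanocortin is a prohormone. Corticotropes of the anterior lobe cut it to adrenocorticotropic hormone, which drives glucocorticoid release from the adrenal cortex, and melanotropes of the intermediate lobe cut it further to alpha-melanocyte-stimulating hormone. The T-box factor encoded by Tbx19 is shared by both lineages, Pax7 specifies the melanotrope, and corticotropes respond to corticotropin-releasing hormone and vasopressin through the receptors encoded by Crhr1 and Avpr1b.

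The libraries held 53915047 counts in RNA-Best and 44917492 in RNAlater, and levels were expressed as counts per 1000000 of that total (CPM). A gene with no count could still have a level of up to 0.0556 CPM in RNA-Best, or 0.0668 CPM in RNAlater, the level of 3 counts. Ratios were taken as RNA-Best over RNAlater on the log2 scale after adding 0.5 CPM, so they understate the change of low genes. They were read for the 16504 genes whose mean level reached 1 CPM, and their median was -0.18 (interquartile range -0.47 to 0.10). The intervals beside the ratios were computed without the added 0.5 CPM. The other pituitary hormone genes were all detected, led by Prl at 235654 and 172302 CPM in RNA-Best and RNAlater.

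Pomc (ENSMUSG00000020660.5, chromosome 12, 3954951-3960642, plus strand, GRCm38) encodes the prohormone itself. It received 514913 counts in RNA-Best and 307354.5 in RNAlater, or 9550 and 6843 CPM. It was the most abundant member by far and was higher in RNA-Best, by 1.40-fold by column total (log2 ratio 0.48, counting interval 0.47 to 0.49). The size of this difference depended on scaling. The log2 ratio was 0.65 with the library sizes adjusted by TMM (trimmed mean of M-values) and 0.67 with DESeq2 size factors. With Prl and Gh left out of the totals it was 0.61. By CPM Pomc ranked 3 in RNA-Best, between Gh at 61040 CPM and mt-Co1 at 6665 CPM. In RNAlater it ranked 6, between Chgb at 7069 CPM and Hspa1a at 5781 CPM. This 1 gene therefore made up 0.955% of all gene counts in RNA-Best and 0.684% in RNAlater, with 95% Clopper-Pearson bounds of 0.952% and 0.958% for the first and of 0.682% and 0.687% for the second. Prl and Gh were the most abundant genes of both libraries. With Prl and Gh left out of the totals the shares were 1.36% and 0.891%, so the order of the libraries was kept. In bulk samples such as these, fewer cells of a type and less RNA per cell cannot be told apart.

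The sequence just before the Pomc start is shown because this gene carried the highest level of the 8. It runs over the 250 bases before the RefSeq start (GRCm38.p6, chr12:3954695-3954944, plus strand), 5′ to 3′. Capitals mark a TATAAA match and the matches to CANNTG, the letters of the E-box to which basic helix-loop-helix factors such as the product of Neurod1 bind.
Pomc: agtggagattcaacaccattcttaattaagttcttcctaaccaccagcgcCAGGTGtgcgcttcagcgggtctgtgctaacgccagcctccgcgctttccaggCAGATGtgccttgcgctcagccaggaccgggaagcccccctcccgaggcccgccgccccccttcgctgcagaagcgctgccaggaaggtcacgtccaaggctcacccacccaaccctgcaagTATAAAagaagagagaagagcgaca
Both strands were searched, and the matches did not overlap. The TATAAA match began 25 bases before the start, and the CANNTG matches began 200 and 147 bases before it, as CAGGTG and CAGATG. Of 32851 RefSeq promoters, 3.92% held TATAAA in the 60 bases before the start and 66.2% held CANNTG in the 250 bases before it. Among the 6 member promoters used here (Pomc, Tbx19, Crhr1, Pax7, Neurod1 and Crhbp), Pomc alone held TATAAA in either window, whereas CANNTG was found within 250 bases in Pomc, Tbx19, Neurod1 and Crhbp. A match describes letters only, and binding was not measured in these libraries.

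Tbx19 (ENSMUSG00000026572.11, chromosome 1, 165137855-165160773, minus strand) encodes the transcription factor that activates Pomc together with the Pitx factors. It had 1153 counts in RNA-Best, against 1070 in RNAlater, or 21.4 and 23.8 CPM. The libraries were close, with a log2 ratio of -0.15 (counting interval -0.28 to -0.03). The direction depended on scaling: with the library sizes adjusted by TMM the ratio was 0.02.

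Neurod1 (ENSMUSG00000034701.9, chromosome 2, 79452521-79456751, minus strand) encodes a basic helix-loop-helix factor of the corticotrope lineage. It had 218 and 226 counts in RNA-Best and RNAlater, or 4.04 and 5.03 CPM, with a log2 ratio of -0.28 (-0.59 to -0.04). It was thus lower in RNA-Best by little more than the counting error by column total, and under TMM its counting interval included 0. Its exons overlap those of Cerkl on the same strand, which had 85 and 102 counts, and reads in the overlap may have been assigned to either. The exons also overlap Gm26755 on the opposite strand, which was at 0 in both libraries.

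Pax7 (ENSMUSG00000028736.13, chromosome 4, 139737062-139833528, minus strand) encodes the paired-box factor that opens the melanotrope program. It had 355 counts in RNA-Best, against 482 in RNAlater, or 6.58 and 10.7 CPM. This was the member with the lowest ratio, -0.66 (-0.91 to -0.50), which was lower in RNA-Best under every scaling tried. Pax7 also marks satellite cells of skeletal muscle. The muscle regulators Myod1 and Myog were at 0 in both libraries, and Myf5 had 7 and 0 counts. Acta1 (skeletal actin) had 169.42 and 172.34 counts, Chrna1 had 30 and 30, and Ckm had 6 and 14. The 6 muscle markers summed to 3.94 and 4.82 CPM.

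Crhr1 (ENSMUSG00000018634.10, chromosome 11, 104132855-104175523, plus strand) encodes the receptor that couples corticotropin-releasing hormone to cAMP. It had 515 and 477 counts in RNA-Best and RNAlater, or 9.55 and 10.6 CPM, with a log2 ratio of -0.15 (-0.34 to 0.03). Counting error alone covered this difference, and under TMM scaling the ratio was 0.02. Avpr1b (ENSMUSG00000026432.7, chromosome 1, 131599239-131612000, plus strand) encodes the vasopressin receptor of corticotropes, which signals through Gq and phospholipase C. It had 110 counts in RNA-Best, against 111.67 in RNAlater, or 2.04 and 2.49 CPM, with a log2 ratio of -0.23 (-0.68 to 0.10). Avpr1b was the lowest of the members that were detected, and its difference also lay within counting error. Per kilobase of the longest annotated transcript, Crhr1 exceeded Avpr1b by 7.66-fold in RNA-Best and 6.99-fold in RNAlater. The size of this excess depended on the length used, since Avpr1b has a longest transcript of 4023 bases and a median of 2323. With median lengths Crhr1 was still higher, but by less. Levels per kilobase, scaled to a fixed sum per library, were then 3.59 for Crhr1 and 0.813 for Avpr1b in RNA-Best. In RNAlater they were 4.40 and 1.09.

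Crhbp (ENSMUSG00000021680.7, chromosome 13, 95431371-95444924, minus strand) encodes a secreted protein that binds corticotropin-releasing hormone and limits its action. It had 23555 counts in RNA-Best, against 17892 in RNAlater, or 437 and 398 CPM, which ranked it 157 and 174 among all genes. Its log2 ratio was 0.13 (0.11 to 0.16), rising to 0.31 under TMM scaling. Crhbp and Pomc were the 2 members that were higher in RNA-Best by column total. Which cells gave the Crhbp counts was not measured in these bulk samples.

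Mc2r (ENSMUSG00000045569.6) encodes the adrenocorticotropic hormone receptor, whose main site is the adrenal cortex. It received 0 counts in both libraries, which allows up to 0.0556 and 0.0668 CPM. The adrenal enzymes Cyp11b1, Cyp11b2 and Hsd3b1 were at 0 in both libraries as well, and Cyp11a1 and Cyp21a1 had between 0 and 3 counts. The 6 adrenal cortex markers summed to 1.67 and 3.23 CPM, nearly all of it from Star, which carries cholesterol into the mitochondrion and had 88 and 139 counts.

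**Figure D1:**
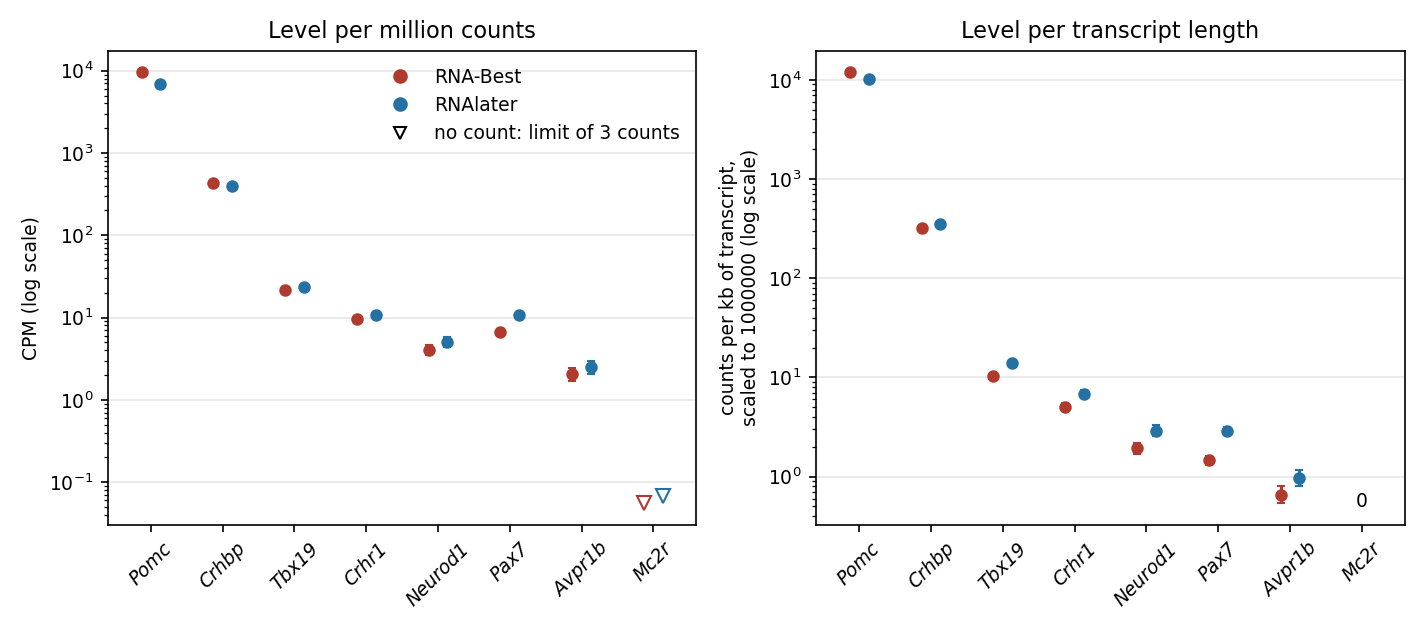
Level of the 8 members in RNA-Best (red) and RNAlater (blue), 1 library each, as CPM (left) and as counts per kilobase of the longest annotated transcript scaled to a sum of 1000000 (right), both on log axes. Bars are 95% exact Poisson intervals of the count; open triangles mark the level of 3 counts for Mc2r, which had none. The members run from Pomc at 9550 and 6843 CPM down to Avpr1b at 2.04 and 2.49 CPM.

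Levels were set against each other between members only per kilobase of the longest annotated transcript, scaled to a sum of 1000000 over all genes of the library. On this scale the order was Pomc, Crhbp, Tbx19, Crhr1, Neurod1, Pax7, Avpr1b and Mc2r in both libraries. The scale was used within a library only, since its sum moves with the lengths of the genes read. Pomc stood at 11905 in RNA-Best and 10330 in RNAlater, and Crhbp, next in the order, at 319 and 353. Tbx19 followed at 10.5 and 14.1, and Crhr1 at 5.05 and 6.80. The hormone transcript thus stood far above the transcripts of the factors and receptors. Neurod1 was at 1.93 in RNA-Best and 2.90 in RNAlater, and Pax7 at 1.46 and 2.89. These 2 neighbours were not separated in RNAlater, where their counting intervals overlapped, and they changed places in both libraries when the median transcript length was used. Avpr1b closed the order of detected members at 0.659 and 0.973. Every other pair of neighbours among the detected members had intervals that did not overlap.

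Between the libraries, none of the 7 members that reached a mean of 1 CPM differed by 2-fold or more. Of all 16504 genes, 45 (0.273%) were higher in RNA-Best by 2-fold or more and 824 (4.99%) were lower by as much. Under TMM scaling the split was 110 higher and 438 lower, and with DESeq2 size factors 118 and 423. By any amount, 5 of the 7 members were lower in RNA-Best by column total, beside 67.0% of all genes, and under TMM 4 of the 7 were higher, beside 48.6%. The median of the members was -0.15, against -0.18 over all genes. The members as a group were therefore placed near the middle of all genes, with Pomc and Pax7 at their ends. By column total the counting interval excluded 0 for 5 of the 7 (Pomc, Crhbp, Tbx19, Neurod1 and Pax7), beside 71.4% of all genes. Under TMM it did so for 3 of the 7 (Pomc, Crhbp and Pax7), beside 69.9%.

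**Figure D2:**
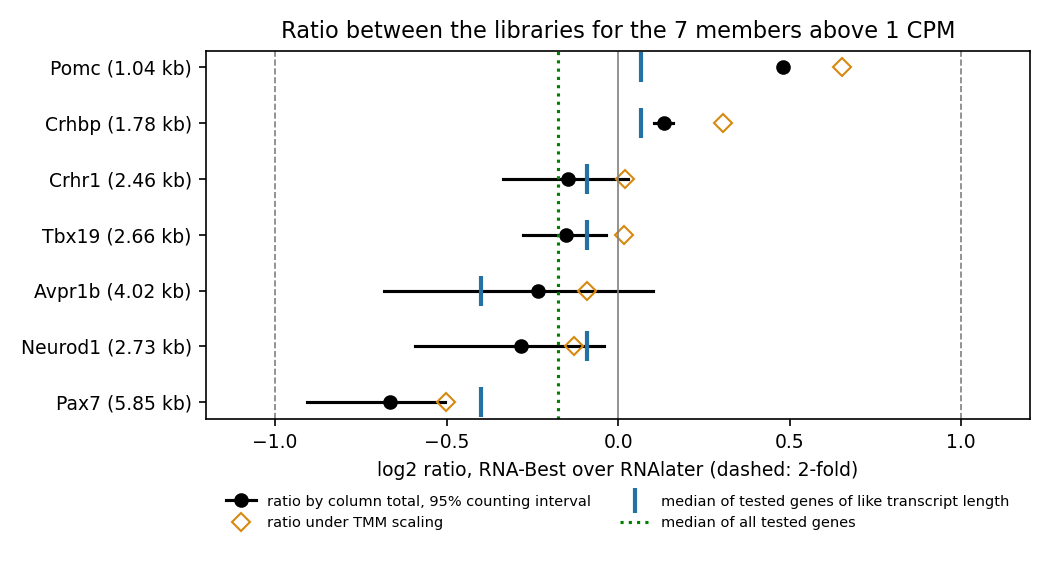
Log2 ratio of RNA-Best over RNAlater for the 7 members that reached a mean of 1 CPM; the length of the longest transcript stands beside each name. Black points are ratios by column total with their 95% counting intervals, diamonds are ratios under TMM scaling, blue bars the median of tested genes of like length, the dotted line the median of all tested genes and the dashed lines 2-fold. Pomc (0.48) and Crhbp (0.13) lie to the right of 0 and Pax7 (-0.66) farthest to the left, and Tbx19 and Crhr1 cross 0 under TMM.

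The ratio moved with transcript length across all genes. Its median was 0.29 over 2093 genes under 1 kb and fell through 0.07 at 1 to 2 kb, -0.09 at 2 to 3 kb, -0.22 at 3 to 4 kb, -0.40 at 4 to 6 kb and -0.65 at 6 to 10 kb to -0.90 over 373 longer genes. Pomc, at 1.043 kb, was the shortest of the detected members and had the highest ratio, and Pax7, at 5.854 kb, was the longest and had the lowest. Pomc lay above the median of its 1 to 2 kb class, at percentile 92.4 of 2715 genes. Pax7 lay below the median of its 4 to 6 kb class, at percentile 23.7 of 3464 genes. Crhbp and Avpr1b were also above their class medians, and Tbx19, Crhr1 and Neurod1 were below the -0.09 of theirs. The part of transcript length in the members' ratios was not tested.

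**Figure D3:**
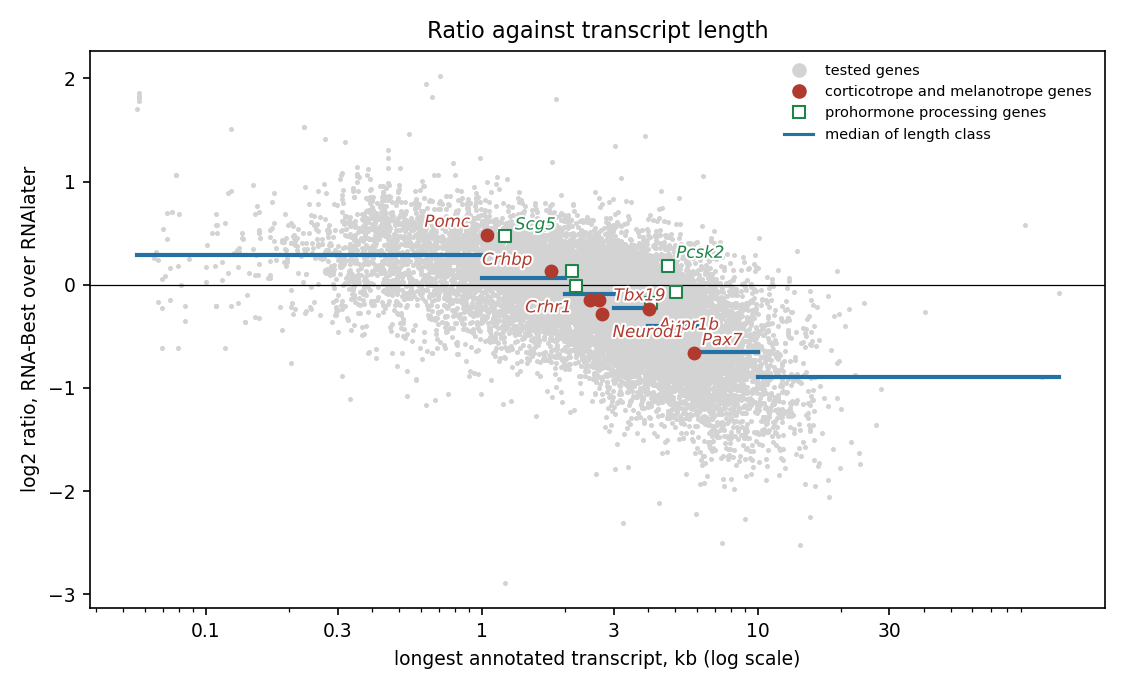
Log2 ratio of RNA-Best over RNAlater (vertical axis) against the longest annotated transcript in kb (horizontal axis, log scale) for tested genes (grey), with the members in red, the 6 prohormone processing genes as green squares (Scg5 and Pcsk2 named) and the median of each length class as a blue line. The class medians descend from 0.29 to -0.90, with Pomc above and Pax7 below the median of its own class.

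Ratios of one member to another within a library do not depend on how the libraries are scaled, and 21 pairs of detected members were compared in this way. The pairs share genes and are not independent of each other. In 14 of the 21 the counting interval of the change between libraries excluded 1, and each of these 14 pairs held Pomc, Pax7 or Crhbp. For single genes by column total the interval excluded 0 in 71.4% of all genes, and the share over other gene pairs was not computed. The count of Pomc per count of Pax7 was 1450 in RNA-Best and 638 in RNAlater, a change of 2.27-fold (1.98 to 2.62). Per count of Tbx19, Pomc had 447 and 287 counts (1.55-fold, 1.43 to 1.69), and per count of Crhbp it had 21.9 and 17.2 (1.27-fold, 1.25 to 1.30). Pomc was thus higher in RNA-Best relative to each of these members. Pair ratios are not freed of transcript length: the class medians were 0.07 for Pomc (1.043 kb) and -0.40 for Pax7 (5.854 kb). The part of length in them was not tested. Tbx19 had 3.25 and 2.22 counts per count of Pax7 (1.46-fold, 1.24 to 1.72). In none of the 6 pairs among Tbx19, Crhr1, Avpr1b and Neurod1 did the interval exclude 1. These genes had between 110 and 1153 counts in a library, and few counts widen an interval. Tbx19 had 2.24 counts per count of Crhr1 in both libraries (0.998-fold, 0.857 to 1.16). Crhr1 had 4.68 and 4.27 counts per count of Avpr1b (1.10-fold), and this interval, 0.813 to 1.49, was wide enough to hold a change in either direction.

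The genes listed for processing of the prohormone, enzymes and other proteins, were detected throughout. All 6 listed genes were tested, with 3 higher and 3 lower in RNA-Best by column total (5 higher under TMM), none by 2-fold. Beside these counts, 67.0% of all genes were lower by column total and 48.6% higher under TMM. The median of the list was 0.06 against -0.18 over all genes. Pcsk1, the convertase that releases adrenocorticotropic hormone, stood at 88.8 and 93.1 CPM in RNA-Best and RNAlater. Pcsk2, the convertase that melanotropes add to make alpha-melanocyte-stimulating hormone, stood at 113 and 99.3 CPM. Counts of Pcsk2 per count of Pcsk1 were 1.27 in RNA-Best and 1.07 in RNAlater, a change of 1.19-fold (1.12 to 1.26). Cpe, which trims basic residues after cleavage, was at 849 and 775 CPM, and Pam, which amidates peptides, at 392 and 443 CPM. The chaperone gene of the second convertase, Scg5, had the highest ratio of the list (0.48) at 1115 and 802 CPM. Pcsk1n, the remaining gene of the list, was at 465 and 468 CPM. These genes serve other peptide hormones too, so their counts are not those of the Pomc cells alone.

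Of the ligands and the other receptors of the axis, 1 of 8 reached a mean of 1 CPM. Crh had 0 counts in both libraries, and Ucn, Ucn2, Ucn3 and Avpr2 had between 0 and 3. Crhr2 had 9 counts in each library and Avpr1a had 4 in each, against 515 and 477 for Crhr1 and 110 and 111.67 for Avpr1b. Few reads therefore came from receptors of these ligands other than Crhr1 and Avpr1b. Avp, the vasopressin gene, had 69.67 and 129.83 counts (1.29 and 2.89 CPM, log2 ratio -0.92). Oxt, the oxytocin gene of hypothalamic neurons that also project to the posterior lobe, had 124.33 and 244.17 counts (log2 ratio -1.08 by column total and -0.93 under TMM).

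All 13 genes of the signalling chain below these receptors were tested. By column total 2 were higher and 11 lower in RNA-Best, beside 67.0% of all genes lower, with a median of -0.35. Under TMM 5 of the 13 were higher, beside 48.6% of all genes. The longest transcripts of these genes had a median of 4.35 kb, and 7 of the 13 lay above the median of their length class. The highest was Crem (0.11), which encodes a cAMP-responsive factor and stood at 106 and 98.1 CPM. The lowest was Itpr1 (-1.44), the inositol trisphosphate receptor that releases stored calcium, at 39.8 and 109 CPM. It was the only gene of this chain past 2-fold (-1.27 under TMM), beside 4.99% of all genes lower by as much by column total.

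Among the other melanocortin receptors and their partners, Mc3r was the receptor that reached a mean of 1 CPM, with counts of 215 in RNA-Best and 185 in RNAlater (3.99 and 4.12 CPM, log2 ratio -0.04). Mc4r had 14 and 5 counts, Mc1r 3 and 3, and Mc5r 2 and 0. The accessory protein gene Mrap, whose product brings the Mc2r receptor to the surface, had 0 and 7 counts, and Mrap2 had 700.5 and 600.4 (log2 ratio -0.04). Both ratios near 0 changed sign under TMM, to 0.11 for Mc3r and 0.13 for Mrap2. Of the antagonists, Agrp had 26 and 11 counts, and Asip was not matched.

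The list of other regulators of Pomc transcription had 15 genes, all tested, of which 1 was higher and 14 were lower in RNA-Best by column total (3 higher under TMM), with a median of -0.41. Neurod4 was the higher one (0.27), at 86.3 and 71.4 CPM. The orphan nuclear receptor gene Nr4a3, at 128 and 285 CPM (-1.15), and the chromatin remodeller gene Smarca4, at 44.3 and 96.9 CPM (-1.12), were past 2-fold by column total and just short of it under TMM (-0.98 and -0.95). Beside these counts, 67.0% of all genes were lower by column total and 51.4% under TMM, and 4.99% were lower by 2-fold or more by column total. Of the 15 genes, 3 lay above the median of their length class. That median was -0.40 for the class of Nr4a3 and -0.65 for the class of Smarca4.

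Further genes of the corticotrope and the melanotrope were read beside the members. Of 6 corticotrope genes, 5 were tested, with 1 higher and 4 lower by column total (2 higher under TMM), from Cdh8 (-0.44) to Galnt9 (0.17), and a median of -0.17. All 5 melanotrope genes were tested, with 1 higher and 4 lower by column total (3 higher under TMM), from Rbfox3 (-0.70) to Gulo (0.62), and a median of -0.15. Beside the counts of both lists, 67.0% of all genes were lower by column total and 48.6% higher under TMM. Drd2, the dopamine receptor through which melanotropes are restrained and which lactotropes share, was at 18.6 and 20.7 CPM. Oacyl was at 62.9 and 67.2 CPM (-0.09), whereas Pax7 was at 6.58 and 10.7 CPM, and Pax7 counts per count of Oacyl were 0.105 and 0.160 (0.655-fold, 0.564 to 0.759). The melanotrope genes thus spread over both sides of 0, with Rbfox3 near Pax7 and Gulo near Pomc.

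The intermediate lobe is attached to the posterior lobe, and the markers of its pituicytes were read for that reason. All 4 were lower in RNA-Best, by column total and under TMM, beside 67.0% and 51.4% of all genes, and none was at 0. By column total 2 were past 2-fold, Nkx2-1 (-1.28) and Col25a1 (-1.07), and under TMM Col25a1 was short of it (-0.90). Their levels summed to 42.0 CPM in RNA-Best, against 87.7 in RNAlater, and most of either sum was Col25a1, at 36.9 and 78.2 CPM. The longest transcript of Col25a1 has 6.701 kb, and the median of its length class was -0.65. Rax had the highest ratio of the 4 (-0.31), with a counting interval that included 0 (-0.85 to 0.05). Each of the 4 lay below the median of its length class. The 6 markers of hypothalamic neurons summed to 26.3 and 31.1 CPM, with Pmch at 0 in both. Most of that sum was Slc17a6, a glutamate transporter gene, at 23.6 and 25.2 CPM, whereas Oxt was at 2.31 and 5.44 CPM. Pax7 (-0.66) was lower in RNA-Best by column total, as the 4 pituicyte markers and 67.0% of all genes were. Its ratio lay above those of Nkx2-1 and Col25a1 and below those of Rax and Gfap (-0.35). The part of these markers in the Pax7 ratio was not tested. All 6 other pituitary hormone genes were higher in RNA-Best by column total and under TMM, as Pomc was, from Gh (0.04) to Tshb (0.73), with a median of 0.41. Over all genes, 67.0% were lower by column total and 48.6% higher under TMM. The longest transcripts of the hormone genes had a median of 0.879 kb, and genes under 1 kb had a median ratio of 0.29. Of the 6 hormone genes, 4 lay above the median of their length class, and Gh and Lhb lay below it.

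**Figure D4:**
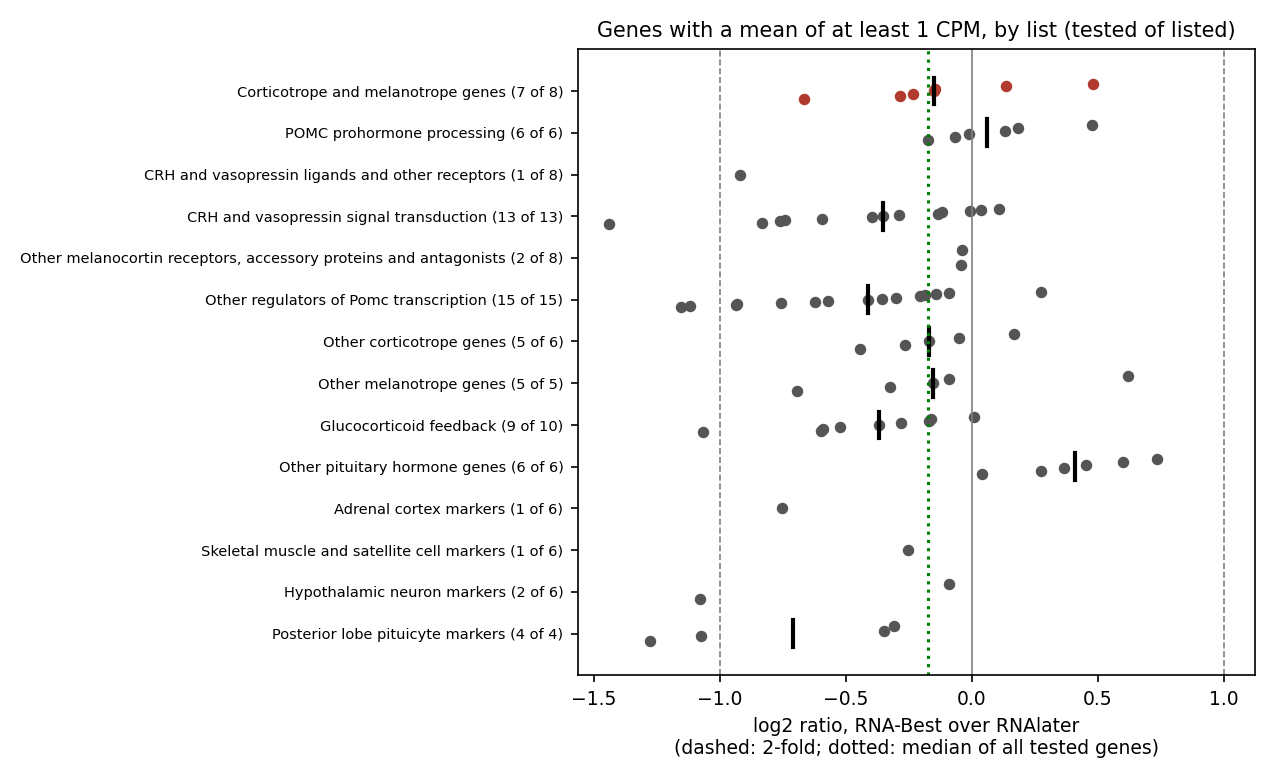
Log2 ratio of RNA-Best over RNAlater for each gene that reached a mean of 1 CPM among the members (red) and in 13 further lists, with tested and listed gene numbers in brackets. Each point is a gene, black bars are list medians, dashed lines mark 2-fold and the dotted line is the median of all tested genes at -0.18. Processing genes (median 0.06) and other hormone genes (0.41) sit to the right of that line, and regulators of Pomc (-0.41) and pituicyte markers (-0.71) to its left.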

How the data were processed

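Per the submitters' processing notes and the methods, the authors aligned reads with STAR (2.5.1b) to mm10 and assigned them to genes with featureCounts (1.5.0-p1). The deposited table holds estimated counts, in part fractional (35.4% and 34.9% of the values above 0, and 2 of the 8 members), for 47069 genes. How reads were split and the strand setting are not given in the sources used here. Of the identifiers, 98.9% matched GENCODE M21 (GRCm38), which gave symbols, positions and lengths. Members and gene lists were chosen with earlier results of these data known. All 8 members are named, and of each of 13 further lists the tested genes at both ends of the ratio, besides receptors, ligands and enzymes.

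CPM used the column total. Log2 ratios used a pseudocount of 0.5 CPM for genes averaging 1 CPM or more, and 2-fold was the rule of size. With 1 library per group the study's limma-voom test could not be run, and no p-value is given. Intervals (95%) are exact: conditional binomial for ratios, Clopper-Pearson for shares and Poisson for levels. A ratio script was tested on simulated data. Scaling alternatives used edgeR 4.0.16 (TMM) and DESeq2 1.42.0 (size factors) under R 4.3.3, and the rest Python 3.11.15 with scipy 1.17.1. Promoter sequence came from RefSeq (GRCm38.p6).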

Additional observations from a re-analysis of the deposited data

How the results depend on the processing

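No paired analysis was possible because each solution had 1 library. The count of members past 2-fold was 0 under all 8 alternatives tried (3 scalings, 2 pseudocounts, 2 filters and thinning to an equal total). Over all genes, 110 were at least 2-fold higher and 438 lower in RNA-Best under TMM, and 118 and 423 with DESeq2 size factors. With the 2 most abundant genes left out of the totals, 94 were higher and 572 lower by as much. The median ratio of all genes moved from -0.18 to -0.01 (TMM), -0.0036 (DESeq2) and -0.06 (totals without those 2 genes), and each member's ratio moved up by a like amount. Of 42 member ratios recomputed, 4 changed sign: Tbx19, to 0.017 (TMM) and 0.029 (DESeq2), and Crhr1, to 0.019 and 0.030. The Pomc share was 1.36% and 0.891% without those 2 genes. With median transcript lengths, 2 members changed place in the level order of each library. Depth limits Avpr1b and Neurod1 most, followed by Pax7 and Crhr1, and an interval cannot stand in for a second library.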

Other observations

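Glucocorticoids act back on corticotropes to restrain Pomc, and 10 genes of that loop were read. Of the 9 tested, 1 was higher and 8 were lower in RNA-Best by column total (3 higher under TMM), with a median of -0.37 against -0.18 over all genes. Over all genes, 67.0% were lower by column total (4.99% by 2-fold or more) and 48.6% higher under TMM. The glucocorticoid receptor gene Nr3c1 stood at 59.8 CPM in RNA-Best, against 90.9 in RNAlater, and the mineralocorticoid receptor gene Nr3c2 at 22.1 and 33.6 CPM. Of the 9 tested genes, Nr3c1 alone lay above the median of its length class (-0.60 against -0.65). Hsd11b1, whose enzyme regenerates active glucocorticoid, was the gene of the list closest to equal (85.3 and 84.7 CPM, log2 ratio 0.01), while Hsd11b2, whose enzyme inactivates it, had 5 and 0 counts. Per1, a clock gene with a glucocorticoid response, was past 2-fold lower by column total (78.4 and 165 CPM, log2 ratio -1.07) but not under TMM (-0.89), and Fkbp5, a feedback inhibitor of the receptor, stood at 30.9 and 37.6 CPM. Lifr and Il6st, which encode the receptor through which leukaemia inhibitory factor reaches Pomc, were at 22.5 and 38.4 CPM and at 120 and 231 CPM.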
